A study of Saccharomyces cerevisiae S288C with 71 samples.

Results

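Cultures of Saccharomyces cerevisiae that lacked RAS2 were compared at 16 h and at 12 h of growth, 4 hours apart, for every gene of the deposited expression table. The comparison took the libraries labelled with the single deletion ras2{delta} and with 16 or 12 hours, which were 4 of the 71 libraries of the series, 2 at 16 h and 2 at 12 h. Of 5803 genes in the table, 5766 were tested. The series measured RNA in 12 strains of the S288C background at 0, 12 and 16 h: the wild type (w.t., called wt here), strains deleted for COQ2 or COX4, which cannot complete the electron transport chain, strains deleted for RAS2, RTS1 or TCO89, and the 6 double mutants of one of each kind. The groups set beside ras2 were wt, rts1 and tco89 at 16 and 12 h, with 2 libraries in each group, and coq2 ras2 and cox4 ras2 at both times as values only. All strains were grown at 30 C with shaking in a defined medium of yeast nitrogen base, ammonium and 2% glucose, without an added drug, and the 0 h samples were taken in log phase. Libraries of one strain and time are technical replicates by their labels, so every p-value below reflects how far such libraries differ and not how far separate cultures would.

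Ras2 is a small GTPase that activates adenylate cyclase when glucose is plentiful, and the cyclic AMP made there releases protein kinase A from its inhibitory subunit. Active protein kinase A favours fermentation, ribosome production and growth and holds back the stress response and the build-up of storage carbohydrate. When glucose runs out, yeast passes the diauxic shift, in which the DNA-binding Hap2, Hap3 and Hap5 proteins with their activator Hap4 switch on genes of respiration through the sequence CCAAT, and the ethanol made earlier is respired.

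The RAS2 transcript stood at 0.1 and 1.08 TPM (the deposited unit, a share of the library's transcripts corrected for gene length) in ras2 at 16 h and at 2.32 and 0.461 TPM in ras2 at 12 h. It lay between 0.1 and 2.32 TPM in all 6 ras2 libraries, against 73.2 to 246 TPM in the 18 libraries of wt, rts1 and tco89. The libraries of ras2 correlated across genes at r = 0.995 at 16 h and 0.997 at 12 h, with 20 and 10 genes over 2-fold apart, and 5689 to 5699 genes reached 1 TPM in each. TPM keeps no read count, so depth is unknown. In rts1 at 12 h and in tco89 at 12 h the libraries of a group stood further apart, with 109 and 51 genes over 2-fold apart.

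A gene was said to have risen or fallen when limma's Benjamini-Hochberg adjusted p over all genes was under 0.05 and the change was at least 2-fold on the scale of log2(TPM + 1). In ras2, 227 genes rose between 12 and 16 h (3.94% of those tested) and 104 fell (1.8%). Counts of list members below are to be read beside these shares of all genes. By the adjusted p alone 1615 genes were higher (28%) and 799 lower (13.9%). The median change of all genes was 0.10 on the log2 scale, and 68.6% of the genes past the threshold had risen. That split depended on how libraries were scaled. With median-ratio scaling, which lowered ras2 changes by 0.16, 151 genes rose and 151 fell, so the changes below are read against the median of all genes. Over the same hours in wt, 13 genes rose (0.225%) and 9 fell (0.156%).

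Genes of respiration rose together. Of 51 tested genes of the TCA cycle, complex III with cytochrome c, cytochrome c oxidase and ATP synthase, 42 rose in ras2 and 0 fell. HAP4, the activator subunit of the Hap complex, had 194 and 212 TPM at 16 h, against 28.0 and 26.8 TPM at 12 h. Both libraries at 16 h were far above both at 12 h, a log2 change of 2.84 ± 0.12 (SE, limma adjusted p = 4.6e-23). In wt HAP4 had 408 and 388 TPM at 16 h and 444 and 469 TPM at 12 h, so the level in ras2 at 16 h was still below that of wt at either time.

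The greatest rise among genes that met the naming rule was that of CYC1, which encodes iso-1-cytochrome c, the carrier of electrons to cytochrome c oxidase. It had 516 and 567 TPM at 16 h, against 41.6 and 23.2 TPM at 12 h, a log2 change of 4.08 ± 0.21 (adjusted p = 3.0e-20). CYC1 was also high in log phase: ras2 had 843 and 895 TPM at 0 h, and 12 h was its low point. Its paralogue CYC7, iso-2-cytochrome c, had 274 and 330 TPM at 16 h, against 104 and 98.3 TPM at 12 h (log2 change 1.57 ± 0.12). All 11 tested genes of complex III and cytochrome c rose, with a median log2 change of 1.64 (range 1.20 to 4.08), and the mitochondrially encoded COB lay below the filter on low values. QCR6, a subunit of complex III, had 958 and 1269 TPM at 16 h, against 209 and 203 TPM at 12 h (2.41 ± 0.12). QCR7 and QCR8, further subunits, had log2 changes of 1.93 and 1.73, and RIP1, the iron-sulfur protein of the complex, 1.69.

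In the TCA cycle 11 of 17 genes rose and 0 fell, with a median of 1.07. The greatest changes were those of SDH1, SDH2 and SDH4, which encode subunits of succinate dehydrogenase. This enzyme is also complex II of the electron transport chain. SDH1, its flavoprotein subunit, had 313 and 298 TPM at 16 h, against 45.7 and 50.7 TPM at 12 h (2.64 ± 0.11, adjusted p = 4.6e-23). SDH2, the iron-sulfur subunit, had 835 and 827 TPM at 16 h, against 156 and 160 TPM at 12 h (2.39 ± 0.11). The membrane anchors SDH4 and SDH3 had changes of 1.98 and 1.48. CIT3, a mitochondrial citrate and methylcitrate synthase, had 32.9 and 35.3 TPM at 16 h, against 8.95 and 9.49 TPM at 12 h (1.78 ± 0.12). At the other end of the list, LSC1 and LSC2, the subunits of succinyl-CoA ligase, had log2 changes of -0.49 and -0.00. With median-ratio scaling 7 of the 17 rose.

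The promoters of these genes are shown because CCAAT is the sequence that the Hap complex binds. Windows ran from 400 to 101 bases before the start codon, 300 bases each, were read from the R64 genome (build sacCer3, RefSeq), and are printed 5′ to 3′ on the strand of the gene, with matches to CCAAT on either strand in capitals (ATTGG is the same site read from the other strand). The SDH1 window is chrXI:171230-171529 on the minus strand, the SDH4 window chrIV:817550-817849 on the plus strand and the CIT3 window chrXVI:555977-556276 on the plus strand. They were taken from the lists of the TCA cycle, complex III with cytochrome c, cytochrome c oxidase and ATP synthase together. Among genes whose window held a match and overlapped no annotated gene, these had the greatest rise.
SDH1: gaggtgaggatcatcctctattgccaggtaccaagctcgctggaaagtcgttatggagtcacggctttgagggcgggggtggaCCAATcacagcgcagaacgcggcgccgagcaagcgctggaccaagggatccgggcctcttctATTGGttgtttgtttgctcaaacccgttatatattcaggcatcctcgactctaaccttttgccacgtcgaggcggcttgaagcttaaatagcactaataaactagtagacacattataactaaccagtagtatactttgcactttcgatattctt
SDH4: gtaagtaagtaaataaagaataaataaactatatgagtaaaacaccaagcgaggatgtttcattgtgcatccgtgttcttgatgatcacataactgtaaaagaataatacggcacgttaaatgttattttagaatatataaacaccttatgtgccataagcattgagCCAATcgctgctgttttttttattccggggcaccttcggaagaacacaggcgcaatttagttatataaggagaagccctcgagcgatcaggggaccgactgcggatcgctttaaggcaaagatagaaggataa
CIT3: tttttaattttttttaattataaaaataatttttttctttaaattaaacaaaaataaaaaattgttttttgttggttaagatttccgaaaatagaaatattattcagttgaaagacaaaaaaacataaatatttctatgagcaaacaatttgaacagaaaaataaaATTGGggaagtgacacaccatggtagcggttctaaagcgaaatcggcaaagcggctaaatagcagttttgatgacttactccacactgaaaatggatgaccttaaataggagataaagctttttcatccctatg
The SDH1 window holds 2 matches, which begin 317 and 255 bases before the start codon, the SDH4 window 1 at 233 and the CIT3 window 1 at 234. CCAAT on either strand occurred in 44.2% of the windows of 5754 tested genes, in 58.59% of those of the genes that rose and in 42.31% of those of the genes that fell. By list it occurred in 14 of 17 TCA cycle genes, 8 of 11 of complex III and cytochrome c, 8 of 9 of cytochrome c oxidase and 14 of 14 of ATP synthase. The CYC1 window held 0 matches although CYC1 had the greatest change. A match is a description of the letters in the window and not a measured binding site.

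**Figure D1:**
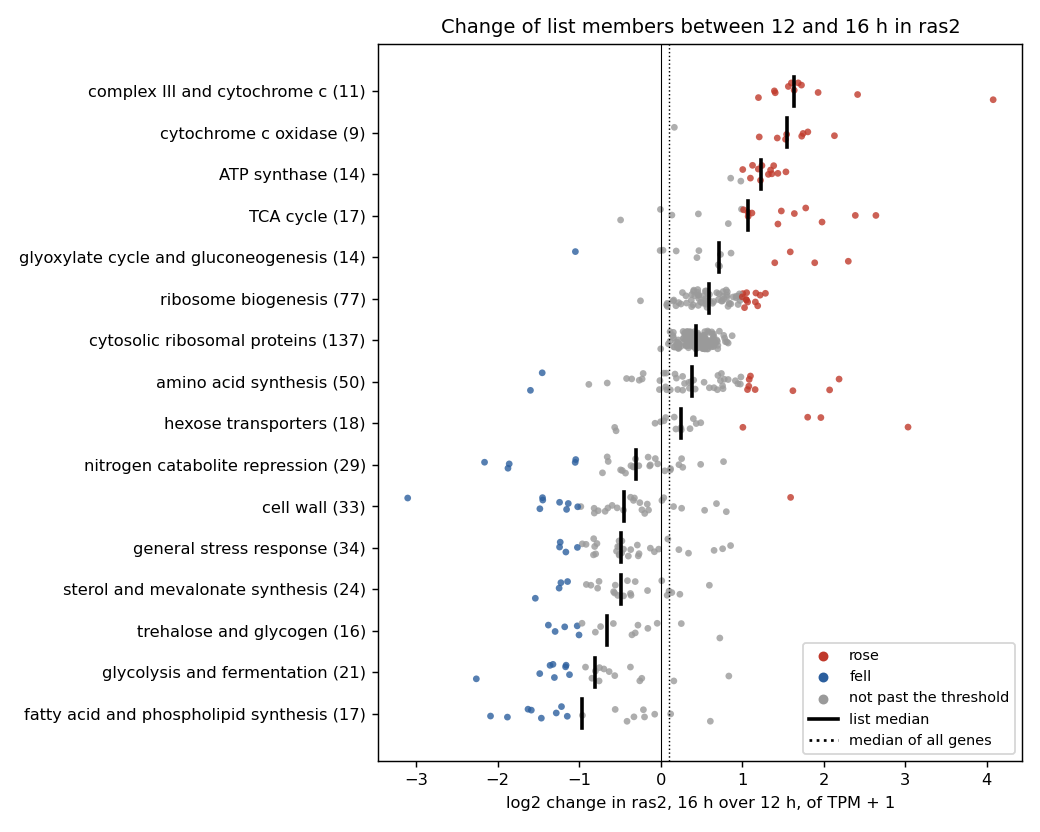
Log2 change of TPM + 1 in ras2, 16 h over 12 h, for each tested member of 16 gene lists (number tested in brackets). Red points rose, blue points fell and grey points did not pass the threshold; black bars are list medians, from 1.64 for complex III and cytochrome c down to -0.96 for fatty acid and phospholipid synthesis, and the dotted line is the median of all genes at 0.10.

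Of 9 nuclear genes of cytochrome c oxidase, the last complex of the chain, 8 rose, with a median of 1.54. COX5A, one of a pair of interchangeable isoforms of subunit 5, had 1519 and 1543 TPM at 16 h, against 363 and 335 TPM at 12 h (2.13 ± 0.09, adjusted p = 4.4e-23). COX5B, the isoform known for use at low oxygen, had 190 and 232 TPM at 16 h, against 194 and 179 TPM at 12 h (0.17 ± 0.09, adjusted p = 0.16). COX7 and COX6, small subunits of the enzyme, had log2 changes of 1.75 and 1.73. COX4 had 1447 and 1394 TPM at 16 h, against 417 and 396 TPM at 12 h, a log2 change of 1.80 ± 0.60 in a fit that also held the cox4 deletion strains. Its adjusted p of 0.013 was 0.0938 with a pseudocount of 0.1 and 0.0504 to 0.0658 when any 1 of the ras2 libraries was left out, and 1.3e-07 in a fit on ras2 libraries alone. ATP synthase makes ATP from the proton gradient, and 12 of its 14 genes rose, with a median of 1.23 and a narrow range of 0.86 to 1.54. ATP20 and ATP14, subunits of the enzyme, had changes of 1.54 ± 0.23 and 1.44 ± 0.09, and the 2 that missed the threshold were ATP19 (0.98) and ATP15 (0.86). With median-ratio scaling 9 of the 14 rose. Summed over the list, complex III and cytochrome c held 9460 and 10291 TPM in ras2 at 16 h, against 2945 and 2798 TPM at 12 h, and wt held 18090.3 and 18970.3 TPM at 16 h.

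Proteins of the mitochondrial ribosome, which translates the mitochondrially encoded subunits, moved less. Only 1 of 65 rose, MRPL50, with a change of 1.02 that stayed under 2-fold with median-ratio scaling, with quantile normalization, with a pseudocount of 5 and without either of the second libraries of the 2 groups. By adjusted p alone 50 of the 65 were higher, against 28% of all genes, and their median was 0.44.

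Of 19 genes of beta-oxidation and the carnitine shuttle 2 rose and 0 fell, where 3.94% of all genes rose and 1.8% fell. The list median was -0.08. YAT1, the carnitine acetyltransferase of the outer mitochondrial membrane, had 58.4 and 53.3 TPM at 16 h, against 4.12 and 5.04 TPM at 12 h (3.35 ± 0.27, adjusted p = 9.4e-14). YAT2, the cytosolic carnitine acetyltransferase, had 133 and 138 TPM at 16 h, against 19.8 and 19.3 TPM at 12 h (2.73 ± 0.08). ACH1, a mitochondrial acetyl-CoA hydrolase and CoA transferase that is in none of the lists, had 353 and 329 TPM at 16 h, against 65.1 and 62.4 TPM at 12 h (2.40 ± 0.11). The carnitine shuttle genes CAT2, the mitochondrial and peroxisomal carnitine acetyltransferase, and CRC1, the carnitine carrier, did not pass the threshold, with log2 changes of 0.83 and 0.48. POX1, the first enzyme of fatty acid oxidation, had 8.95 and 9.06 TPM at 16 h, against 10.6 and 11.8 TPM at 12 h.

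In the glyoxylate cycle and gluconeogenesis, which build sugar from 2-carbon compounds, 4 of 14 genes rose and 1 fell. JEN1, the permease for lactate and pyruvate, had 218 and 205 TPM at 16 h, against 40.9 and 43.2 TPM at 12 h (2.30 ± 0.12). CIT2, the peroxisomal citrate synthase, had 763 and 802 TPM at 16 h, against 211 and 210 TPM at 12 h (1.89 ± 0.08). ICL1, isocitrate lyase, and MLS1, malate synthase, had changes of 1.59 and 1.40. MDH2, the cytosolic malate dehydrogenase of gluconeogenesis, fell to 108 and 109 TPM at 16 h, against 226 and 225 TPM at 12 h (-1.05 ± 0.11). Key enzymes of gluconeogenesis did not pass the threshold: FBP1, fructose-1,6-bisphosphatase, had 38.8 and 32.7 TPM at 16 h, against 34.8 and 36.9 TPM at 12 h (-0.01 ± 0.15, adjusted p = 0.98), and PCK1, phosphoenolpyruvate carboxykinase, had 40.4 and 33.5 TPM against 25.8 and 26.9 TPM (0.47 ± 0.14).

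CIT2 is also a target of the retrograde response, by which mitochondria signal to the nucleus, and 5 of 10 genes of that list rose, with a median of 0.95. PDH1, an enzyme of propionate breakdown, had 48.6 and 51.9 TPM at 16 h, against 6.77 and 7.16 TPM at 12 h (2.69 ± 0.14). DLD3, a cytosolic D-2-hydroxyglutarate dehydrogenase, had 404 and 430 TPM at 16 h, against 93.7 and 83.9 TPM at 12 h (2.22 ± 0.20). The regulators RTG1, RTG2 and RTG3 did not pass the threshold, with log2 changes of 0.14, 0.22 and 0.50.

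Of 18 genes of hexose transporters and glucose sensors 4 rose, where 3.94% of all genes rose. These were HXT6, HXT7, HXT4 and HXT2, which are known as transporters of cells at low glucose. HXT6 had 1062 and 1040 TPM at 16 h, against 125 and 130 TPM at 12 h (3.03 ± 0.41, adjusted p = 8.2e-08), and HXT7 had 2242 and 2196 TPM, against 651 and 621 TPM (1.80 ± 0.14). These 2 genes are 99.825% identical, and how reads were divided between them is not given in the sources used here, so their separate values are uncertain. HXT4 had 970 and 930 TPM at 16 h, against 255 and 231 TPM at 12 h (1.96 ± 0.16). HXT2 had 27.0 and 31.3 TPM against 11.2 and 17.4 TPM (1.01 ± 0.17), a change that stayed under 2-fold with median-ratio scaling (0.86), with quantile normalization (0.89), with a pseudocount of 5 (0.84), without the first library at 12 h (0.71) and without the second at 16 h (0.90).

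Other genes among the greatest rises have roles outside these lists. RGI2, a protein of energy metabolism during respiratory growth, had 91.0 and 109 TPM at 16 h, against 13.1 and 14.9 TPM at 12 h (2.75 ± 0.25). ECM13, a gene of unknown function, had 316 and 356 TPM at 16 h, against 47.5 and 44.1 TPM at 12 h (2.85 ± 0.18). SPO24, which encodes a small protein known from sporulation, was abundant, with 12646 and 12331 TPM at 16 h, against 2427 and 2319 TPM at 12 h (2.40 ± 0.09). DSF1, a relative of mannitol dehydrogenase, had 100 and 101 TPM at 16 h, against 20.1 and 19.8 TPM at 12 h (2.28 ± 0.26), and is 98.94% identical to MAN2, so its value is uncertain. Markers of sporulation did not pass the threshold (0 of 6), and their summed level was 53.6 and 53.5 TPM at 16 h, against 48.6 and 46.0 TPM at 12 h.

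Genes of the translation machinery were higher at 16 h by small steps. Of 137 cytosolic ribosomal protein genes 0 passed the 2-fold threshold, but 107 were higher by adjusted p alone, where 28% of all genes were, and their median was 0.43. Together they held 159367 and 165741 TPM at 16 h, against 124966 and 119128 TPM at 12 h. With median-ratio scaling 66 were higher by adjusted p alone, with a median of 0.27 against -0.04 for all genes. Of 77 ribosome biogenesis genes 12 rose and 0 fell, with a median of 0.60. NMD3, an export adaptor of the large subunit, had 28.2 and 31.9 TPM at 16 h, against 11.3 and 12.1 TPM at 12 h (1.28 ± 0.13). KRR1, a processing factor of the small subunit, had 43.9 and 61.2 TPM against 22.1 and 21.3 TPM (1.22 ± 0.13), and without the second library at 16 h its change was 0.98. The count rested in large part on that library: 3 genes of the list rose without it and 21 without the first library at 16 h, and 5 rose with median-ratio scaling. YEF3, translation elongation factor 3, had 165 and 167 TPM at 16 h, against 67.4 and 61.8 TPM at 12 h (1.35 ± 0.25). It was the single gene of 15 translation factors to rise, where 3.94% of all genes rose.

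Amino acid synthesis was mixed, with 8 of 50 genes up and 2 down, where 3.94% of all genes rose and 1.8% fell. CPA1, the small subunit of the carbamoyl phosphate synthetase of arginine synthesis, had 1564 and 1503 TPM at 16 h, against 336 and 336 TPM at 12 h (2.19 ± 0.08, adjusted p = 1.2e-24). GDH3, a glutamate dehydrogenase of non-fermentative growth, had 264 and 227 TPM, against 82.5 and 75.5 TPM (1.62 ± 0.16). The fermentative isoform GDH1 fell to 83.0 and 98.4 TPM at 16 h, against 264 and 236 TPM at 12 h (-1.45 ± 0.27), so the isoforms moved in opposite directions. LYS9, an enzyme of lysine synthesis, fell by 1.60 ± 0.22 on the log2 scale. With median-ratio scaling 4 genes of the list rose and 3 fell.

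Of 13 copper and zinc genes 3 rose and 1 fell, where 3.94% of all genes rose and 1.8% fell. CUP1-1, a copper metallothionein, had 19092 and 20598 TPM at 16 h, against 4580 and 4896 TPM at 12 h (2.07 ± 0.11), a value that is uncertain because CUP1-2 is an identical copy and other annotated genes overlap it on either strand. CRS5, the second copper metallothionein, had 2553 and 2702 TPM at 16 h, against 703 and 729 TPM at 12 h (1.87 ± 0.16). ZRT1, the high-affinity zinc transporter, had 3808 and 3259 TPM, against 1160 and 1073 TPM (1.66 ± 0.20). IZH2, a membrane protein linked to zinc homeostasis, fell by 1.30 ± 0.16. Of 22 iron uptake genes 1 fell and 0 rose, where 1.8% of all genes fell, so this count is not read as a result about the list. By adjusted p alone 10 were lower, against 13.9% of all genes, and the median was -0.24. The one that fell was ISU2, an iron-sulfur cluster scaffold of mitochondria, by 1.42 ± 0.16.

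Genes of glycolysis and fermentation fell. Of 21, 8 fell and 0 rose, with a median of -0.80, and their summed level was 53344 and 48146 TPM at 16 h, against 96650 and 102844 TPM at 12 h. ENO2, the enolase of growth on glucose, fell to 324 and 317 TPM at 16 h, against 1510 and 1574 TPM at 12 h (-2.26 ± 0.20, adjusted p = 7.0e-13). ENO1, the other enolase, fell to 4909 and 4085 TPM, against 10966 and 12015 TPM (-1.36 ± 0.11). PDC1, the main pyruvate decarboxylase and entry to ethanol, fell to 1571 and 1313 TPM, against 4047 and 3992 TPM (-1.48 ± 0.13). GPM1, phosphoglycerate mutase, fell by 1.32 ± 0.10. HXK2, the hexokinase of growth on glucose, went against the list without passing the threshold, with 233 and 219 TPM at 16 h, against 124 and 128 TPM at 12 h (0.84 ± 0.16). TDH3, the most abundant glyceraldehyde-3-phosphate dehydrogenase transcript, had 17615 and 15988 TPM at 16 h, against 27009 and 31667 TPM at 12 h (-0.80 ± 0.09), also short of 2-fold.

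The list with the lowest median, -0.96, was fatty acid and phospholipid synthesis, in which 8 of 17 genes fell and 0 rose. INO1, inositol-3-phosphate synthase, fell to 55.5 and 53.6 TPM at 16 h, against 227 and 244 TPM at 12 h (-2.09 ± 0.14, adjusted p = 8.6e-16). FAS1 and FAS2 encode the subunits of fatty acid synthase. FAS1 fell to 28.4 and 29.1 TPM at 16 h, against 112 and 106 TPM at 12 h (-1.88 ± 0.14), and FAS2 to 24.0 and 24.0 TPM, against 68.8 and 67.2 TPM (-1.46 ± 0.15). OLE1, the fatty acid desaturase, fell to 1435 and 1286 TPM, against 4099 and 4304 TPM (-1.63 ± 0.11). OPI3, a phospholipid methyltransferase, fell by 1.59 ± 0.10, and CHO1, phosphatidylserine synthase, by 1.28 ± 0.10.

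Many phospholipid genes carry CATGTG, the core of the inositol-sensitive element bound by Ino2 and Ino4. The windows of INO1 (chrX:136034-136333, minus strand) and FAS2 (chrXVI:108252-108551, plus strand) are shown as the genes of the list with the greatest fall whose window held the motif and overlapped no annotated gene, with matches on either strand in capitals (CACATG on the other strand).
INO1: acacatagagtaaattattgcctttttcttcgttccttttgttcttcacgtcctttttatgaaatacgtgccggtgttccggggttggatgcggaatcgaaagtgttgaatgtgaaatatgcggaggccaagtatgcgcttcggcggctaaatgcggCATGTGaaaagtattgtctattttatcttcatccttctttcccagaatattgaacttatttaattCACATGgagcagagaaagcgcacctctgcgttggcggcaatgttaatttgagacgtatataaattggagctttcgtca
FAS2: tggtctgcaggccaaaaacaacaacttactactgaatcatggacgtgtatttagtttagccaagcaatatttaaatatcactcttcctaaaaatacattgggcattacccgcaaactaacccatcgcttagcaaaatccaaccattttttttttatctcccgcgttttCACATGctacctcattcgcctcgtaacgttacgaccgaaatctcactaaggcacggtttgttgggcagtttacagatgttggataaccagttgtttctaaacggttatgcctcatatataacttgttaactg
INO1 holds 2 matches, which begin 243 and 178 bases before the start codon, and FAS2 1 at 232. The motif occurred in 10 of 17 windows of the list (58.82%), in 9.28% of the windows of all tested genes, in 16.35% of those of the genes that fell and in 9.69% of those of the genes that rose.

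In sterol and mevalonate synthesis 4 of 24 genes fell and 0 rose, with a median of -0.49. ERG25, a methyl oxidase of ergosterol synthesis, fell to 561 and 484 TPM at 16 h, against 1530 and 1501 TPM at 12 h (-1.54 ± 0.09). ERG3, the C-5 desaturase of the same pathway, fell to 653 and 582 TPM, against 1447 and 1481 TPM (-1.25 ± 0.10). ERG6 and ERG5, other enzymes of the pathway, fell by 1.22 ± 0.16 and 1.14 ± 0.15.

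The greatest fall of a named gene was in the cell wall. CWP2, a major mannoprotein of the wall, fell to 1497 and 1333 TPM at 16 h, against 10990 and 13441 TPM at 12 h (-3.10 ± 0.13, adjusted p = 8.0e-23). Its neighbour by locus tag and relative CWP1 fell to 11.4 and 9.82 TPM, against 34.6 and 28.5 TPM (-1.48 ± 0.31, adjusted p = 1.3e-04). Of 33 cell wall genes 8 fell and 1 rose, with a median of -0.46. HSP150, a secreted wall protein, fell to 3014 and 2723 TPM, against 7164 and 8557 TPM (-1.45 ± 0.14), and its relative CIS3 fell by 1.45 ± 0.26. SED1, the wall protein known for its abundance in stationary cells, fell to 18496 and 16729 TPM at 16 h, against 34652 and 43019 TPM at 12 h (-1.13 ± 0.13), a fall of 0.98 without the second library at 12 h. TIR2, a wall mannoprotein known from cold and low oxygen, rose to 38.6 and 31.5 TPM, against 11.0 and 10.8 TPM (1.59 ± 0.15). The spore wall protein SPS100 fell to 1317 and 1195 TPM at 16 h, against 4148 and 4190 TPM at 12 h (-1.73 ± 0.19), and shares its locus with the antisense transcript SUT169, whose reads cannot be told apart here because the strand setting of the counting is not given in the sources used.

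Other genes among the greatest falls are described singly. Of 10 genes of plasma membrane transport ATPases and related proteins, 1 fell and 0 rose, where 1.8% of all genes fell. This count is not read as a result about the list. The gene was PMA2, a minor proton pump, which fell to 25.2 and 21.8 TPM at 16 h, against 151 and 142 TPM at 12 h (-2.59 ± 0.15, adjusted p = 2.8e-18). PUT4, the proline permease, fell to 8.90 and 7.56 TPM, against 42.5 and 38.0 TPM (-2.16 ± 0.22). GAP1, the general amino acid permease, fell to 14.2 and 14.9 TPM, against 58.7 and 52.2 TPM (-1.86 ± 0.27). These permeases belong to the genes under nitrogen catabolite repression, of which 5 of 29 fell and 0 rose, with a median of -0.31, DAL3, an enzyme of allantoin breakdown, among them (-1.87 ± 0.23). TPO4, a polyamine exporter, fell by 1.84 ± 0.15, and MRH1, a membrane protein of the Hsp30 family, by 1.88 ± 0.17. LSO1, a small protein linked to iron deprivation, fell to 18.5 and 17.6 TPM, against 97.5 and 92.8 TPM (-2.33 ± 0.22).

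Storage carbohydrate and stress genes, which protein kinase A is known to hold back, were lower at 16 h. Of 16 trehalose and glycogen genes 5 fell and 0 rose, where 1.8% of all genes fell. The list median was -0.66. TSL1, a subunit of trehalose synthase, fell to 118 and 110 TPM at 16 h, against 289 and 304 TPM at 12 h (-1.38 ± 0.10). TPS1, which makes trehalose-6-phosphate, fell to 508 and 505 TPM, against 1030 and 1032 TPM (-1.02 ± 0.06), and GPH1, glycogen phosphorylase, by 1.30 ± 0.14. Of 34 genes of the general stress response 4 fell and 0 rose, where 1.8% of all genes fell. By adjusted p alone 23 were lower, against 13.9% of all genes, and the list median was -0.49. YGP1, a secreted glycoprotein of starved cells, fell to 2494 and 2203 TPM, against 5263 and 5834 TPM (-1.24 ± 0.09), a change of -0.83 with quantile normalization. ALD4, a mitochondrial aldehyde dehydrogenase, fell by 1.02 ± 0.10, and by 0.99 and 0.91 without the first library at 12 h and without the second at 16 h. HSP12, a membrane stress protein, had 16664 and 18549 TPM at 16 h, against 16836 and 16272 TPM at 12 h (0.09 ± 0.10, adjusted p = 0.52), and CTT1, cytosolic catalase, had 421 and 362 TPM against 263 and 233 TPM (0.65 ± 0.11), so the list did not move as a block. The letters AGGGG, the core of the stress response element bound by Msn2 and Msn4, stood in 30 of 34 windows of this list (88.24%), in 24.02% of all windows, in 43.27% of those of the genes that fell and in 29.07% of those of the genes that rose.

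Among protein turnover genes, 3 of 12 in the list of vacuolar hydrolases fell, where 1.8% of all genes fell. YPS1, a surface aspartyl protease counted with that list, fell to 73.9 and 69.2 TPM at 16 h, against 219 and 224 TPM at 12 h (-1.62 ± 0.14). The aminopeptidases APE3 and APE1 fell by 1.23 ± 0.07 and 1.07 ± 0.10. Of 35 proteasome genes 0 passed the threshold and 17 were lower by adjusted p alone, against 13.9% of all genes. Of 25 chaperone genes, cytosolic and mitochondrial, 2 fell, where 1.8% of all genes fell. These were SSA1 and SSA2, by 1.01 and 1.06. SSA1 had a change of -0.96 without the second library at 16 h and also without the first at 12 h, SSA2 was just short of 2-fold with quantile normalization, and they are 96.371% identical, so their separate values are uncertain. Of 26 cell cycle genes 1 rose and 2 fell, where 3.94% of all genes rose and 1.8% fell, with a median of 0.06. PCL1, a G1 cyclin of the Pho85 kinase, fell to 2.92 and 2.84 TPM, against 9.11 and 9.83 TPM (-1.43 ± 0.35, or -0.88 with a pseudocount of 5), RNR2, a ribonucleotide reductase subunit, fell by 1.20 ± 0.10, and CDC20, an activator of the anaphase-promoting complex, rose by 1.24 ± 0.15 (0.89 with a pseudocount of 5). Of 17 stationary-phase genes 3 rose and 2 fell, beside the same 3.94% and 1.8% of all genes. SNO1 and SNZ1, of vitamin B6 synthesis, and SPG4 rose by 1.54, 1.49 and 1.25, while SED1 and FMP45, a membrane protein, fell. FMP45 had a change of -1.03, and of -0.96 and -0.86 without the first library at 12 h and without the second at 16 h.

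The genes of the signalling pathway itself did not pass the threshold. Of 19 genes of the Ras and protein kinase A pathway and 13 of TORC1, the growth kinase complex that contains Tco89, 0 rose and 0 fell by the limma threshold. Over all genes 3.94% rose and 1.8% fell, so 0 in lists of this size is not read as a result about them. By adjusted p alone 3 genes of the first list were higher and 5 lower, and 2 of the second were higher. Of all genes 28% were higher and 13.9% lower by that measure. Without the second library of either time 1 gene of the first list passed as lower, RAS2 itself at its residual level. RAS1, the paralogue of RAS2, had 20.9 and 26.4 TPM at 16 h, against 32.8 and 31.6 TPM at 12 h (-0.44 ± 0.11). The greatest change of the first list was that of PDE2, the high-affinity cyclic AMP phosphodiesterase, with 20.3 and 20.6 TPM at 16 h, against 10.2 and 10.0 TPM at 12 h (0.95 ± 0.16), just short of 2-fold. The kinase subunits TPK2 and TPK3 had changes of -0.33 and 0.45, and the inhibitory subunit BCY1 -0.49. Lists of phosphate starvation (18 genes), histones (10) and a-cell markers (5) also had 0 genes past the threshold in either direction. Those counts are likewise not read as results about the lists.

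**Figure D2:**
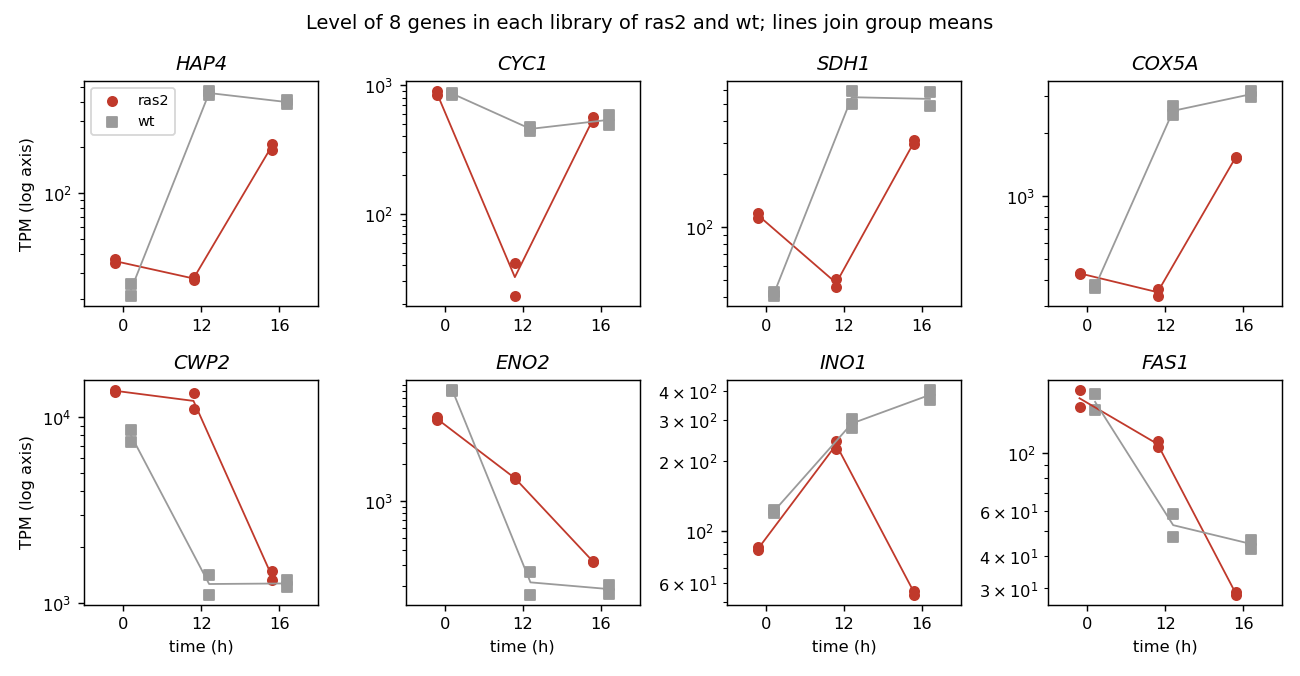
TPM (log axis) of 8 genes at 0, 12 and 16 h, with 1 point per library, ras2 as red circles, wt as grey squares and lines through group means. HAP4, SDH1 and COX5A were low in ras2 at 12 h and high at 16 h while wt was high at both, and CWP2 and ENO2 were high in ras2 at 12 h while wt was already low.

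Whether the change between 12 and 16 h differed from that of wt was tested as an interaction, the log2 change in ras2 minus that in wt. It was more positive in ras2 for 363 genes (6.3%) and more negative for 129 (2.24%). With median-ratio scaling, which lowered this difference by 0.19, the counts were 238 and 226. HAP4 had a difference of 3.04 ± 0.17 (limma adjusted p = 3.9e-18), with a change of 2.84 in ras2 and -0.20 in wt. CYC1 differed by 3.85 ± 0.29, with changes of 4.08 in ras2 and 0.23 in wt. All 11 tested genes of complex III and cytochrome c, 8 of 9 of cytochrome c oxidase, 13 of 14 of ATP synthase and 9 of 17 of the TCA cycle had a more positive change in ras2, with COX4 at an adjusted p of 0.0495 that was 0.193 with a pseudocount of 0.1, 0.0847 with median-ratio scaling and 0.0856 to 0.107 when 1 library was left out. The list medians in wt were -0.03, -0.19, -0.13 and 0.08, so these genes were nearly level in wt, at levels already above those of ras2: COX5A, for example, had 1519 and 1543 TPM in ras2 at 16 h and 2967 and 3163 TPM in wt at 16 h.

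HXT6 had the most positive difference, 4.05 ± 0.58, with a change of -1.02 in wt, subject to its near copy HXT7. DSF1 had a difference of 2.85 and YAT1 of 2.78. The most negative differences were those of LSO1 (-3.30 ± 0.30), CWP2 (-3.12 ± 0.19), PUT4 (-2.99 ± 0.32), PMA2 (-2.58 ± 0.21), INO1 (-2.49 ± 0.20) and MDH2 (-2.41 ± 0.15). INO1 was near wt at 12 h and far from it at 16 h: it had 55.5 and 53.6 TPM in ras2 at 16 h and 404 and 365 TPM in wt at 16 h, while at 12 h it had 227 and 244 TPM in ras2 and 303 and 277 TPM in wt. CWP2 ended at like levels, with 1497 and 1333 TPM in ras2 at 16 h and 1336 and 1224 TPM in wt at 16 h, and wt had 1426 and 1116 TPM at 12 h.

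In the glyoxylate cycle and gluconeogenesis genes of both strains were higher at 16 h, and single genes differed. The median change was 0.71 in ras2 and 0.95 in wt, with 3 genes more positive in ras2 and 5 more negative. The 5 were MDH2, FBP1, SFC1, a mitochondrial succinate and fumarate carrier, ADH2, the alcohol dehydrogenase that consumes ethanol, and PCK1. FBP1 had 38.8 and 32.7 TPM in ras2 at 16 h and 592 and 526 TPM in wt at 16 h, with a difference in change of -1.87 ± 0.21. PCK1 had a difference of -1.54 ± 0.20, SFC1 of -1.82 ± 0.22 and ADH2 of -1.61 ± 0.24. ICL1 and MLS1, by contrast, had differences of -0.04 ± 0.20 and 0.28 ± 0.19 that did not pass the threshold. The 3 more positive ones were JEN1, CIT2 and ADR1, an activator of genes for ethanol use.

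**Figure D3:**
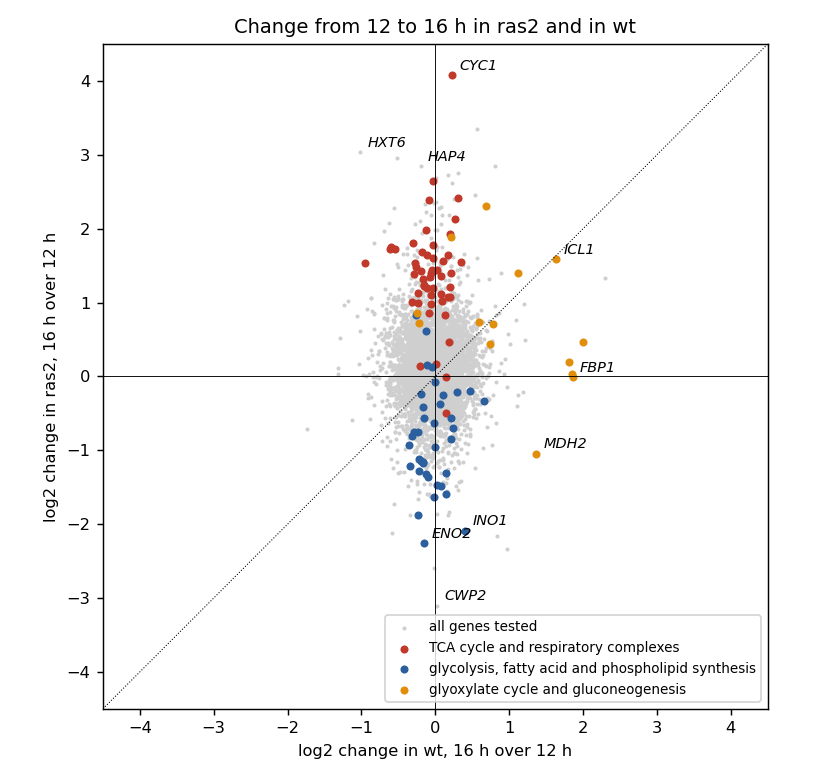
Log2 change of TPM + 1 from 12 to 16 h of each tested gene in ras2 (vertical axis) and in wt (horizontal axis), with the dotted line at equal change. Respiratory genes (red) and glycolytic and lipid genes (blue) spread along the vertical axis, from 4.08 for CYC1 to -2.26 for ENO2, while several genes of the glyoxylate cycle and gluconeogenesis (orange) lie to the right, such as FBP1 with 1.86 in wt and -0.01 in ras2.

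Of 77 ribosome biogenesis genes 29 had a more positive change in ras2 than in wt and 0 a more negative one, with medians of 0.60 in ras2 and -0.21 in wt, where 6.3% of all genes had a more positive change. For cytosolic ribosomal proteins 12 of 137 did, a share near that of all genes, with medians of 0.43 in ras2 and -0.23 in wt. Summed cytosolic ribosomal protein transcripts were 159367 and 165741 TPM in ras2 at 16 h and 62365 and 67286 TPM in wt at 16 h. Of the falling lists, 6 of 21 glycolytic genes and 6 of 17 fatty acid and phospholipid genes had a more negative change in ras2. So did 4 of 24 sterol genes and 7 of 33 cell wall genes, where 2.24% of all genes did. In the glycolytic and cell wall lists 1 gene each had a more positive change, and in the fatty acid and sterol lists 0 did.

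The change was also set against that of the other single mutants. Against rts1, which lacks a regulatory subunit of protein phosphatase 2A, the ras2 change was more positive for 66 genes (1.14%) and more negative for 379 (6.57%). Without the first rts1 library at 12 h the counts were 107 and 376 and without the second 54 and 449, and median-ratio scaling gave 134 and 135. In the respiratory lists few genes were called different: in complex III and cytochrome c the median was 1.64 in ras2 and 1.90 in rts1, with 1 gene called different and that one more positive in ras2, and in cytochrome c oxidase and ATP synthase 0 genes were called different in either direction. The glyoxylate and gluconeogenesis list had a median of 0.71 in ras2 and 1.91 in rts1. Of its 14 genes 9 were more negative in ras2, as were 20 of 65 mitochondrial ribosomal protein genes (medians 0.44 and 1.23). The median change of all genes was 0.10 in ras2 and 0.32 in rts1. These list counts were made on the deposited scale alone. A difference that missed the threshold does not show equal change.

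Against tco89, the change in ras2 was more positive for 214 genes (3.71%) and more negative for 38 (0.659%), or 132 and 88 with median-ratio scaling. Without the first tco89 library at 12 h 62 genes were more negative. The respiratory medians in tco89 were 0.61 for complex III and cytochrome c, 0.59 for cytochrome c oxidase, 0.35 for ATP synthase and 0.41 for the TCA cycle, each below that of ras2, with 6 of 11, 2 of 9, 4 of 14 and 5 of 17 genes more positive in ras2. In amino acid synthesis 15 of 50 genes were more positive in ras2, with medians of 0.39 in ras2 and -0.33 in tco89. These comparisons and the one with wt share the ras2 libraries.

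The double mutants that lack RAS2 and an electron transport gene were sampled at the same times in separate libraries. In coq2 ras2, which cannot make coenzyme Q, the median change of complex III and cytochrome c was 1.68 and that of cytochrome c oxidase 1.69, and in cox4 ras2, which lacks an oxidase subunit, they were 1.93 and 1.90. HAP4 changed by 2.68 in coq2 ras2 and 2.38 in cox4 ras2, beside 2.84 in ras2. Other lists parted. Glycolysis and fermentation had medians of -0.91 in coq2 ras2 and -2.21 in cox4 ras2, beside -0.80 in ras2. Fatty acid and phospholipid synthesis had -0.72 in coq2 ras2 and 0.05 in cox4 ras2, beside -0.96 in ras2, and cytosolic ribosomal proteins had 0.10 and -0.75, beside 0.43. These differences between single and double mutants were not tested.

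**Figure D4:**
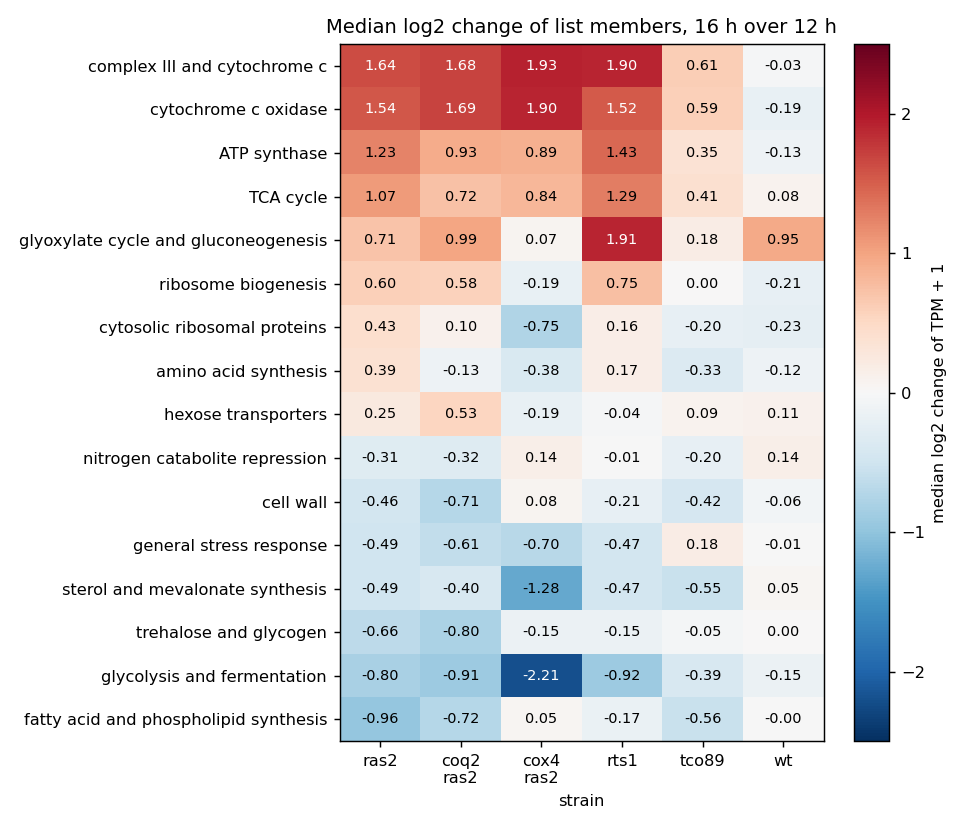
Median log2 change of TPM + 1, 16 h over 12 h, of 16 gene lists (rows) in ras2, coq2 ras2, cox4 ras2, rts1, tco89 and wt (columns), with red for higher and blue for lower at 16 h. The top rows are red in ras2, both double mutants and rts1 (0.89 to 1.93 for complex III, cytochrome c oxidase and ATP synthase), paler in tco89 and near 0 in wt.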

How the data were processed

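The authors deposited TPM values, 1 column per library, for 5803 genes, in 2 tables with identical contents, of which 1 was used; values below 0.1 stand at a floor of 0.1. Per the submitters' processing notes, Salmon 0.9.1, bcl2fastq 2.20.0.422 and the build sacCer3 were used, with no role given, and the libraries were stranded and polyadenylated, per the labels' protocols. Because TPM is a share of a library, a gene that takes more of it lowers the others, and no depth or counting interval can be given. Column names give strain and time but no replicate number.

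A gene entered the tests if 2 or more libraries held 1 TPM or more of it, which kept 5766 and removed 37. All 71 libraries, in 36 groups of strain and time with a mean each, entered a single fit of log2(TPM + 1) with limma 3.58.1 in R 4.3.3, with 35 residual degrees of freedom, empirical Bayes moderation with an intensity trend and Benjamini-Hochberg adjustment over all genes. On this scale, changes at low TPM come out too small. Interaction contrasts compared the ras2 change with that of wt, rts1 and tco89. Alternatives were other pseudocounts, filters, scalings, spreads and thresholds, and leaving out each library. The compared members, the 39 gene lists and the tests were chosen with earlier results of these data known. The text names the 12 greatest rises and 12 greatest falls among genes with a standard name, a mean of at least 10 TPM in 1 group and libraries that did not overlap, the 6 greatest differences from wt in each direction, and up to 4 passing members of a list with up to 2 that went the other way; other genes were added with their values to complete a pathway, and a few genes are not reported here. Identifiers were matched to the R64 annotation (5792 of 5803). Of 106 genes so named, those with a second genomic copy (identity 95% or more along 80% or more of the gene) are called uncertain.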

Additional observations from a re-analysis of the deposited data

Results flagged for a closer look

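The test of the difference between the change in ras2 and that in another strain picked out counts of genes and single genes. Between 12 and 16 h the ras2 change was more positive than the wt change for 363 genes and more negative for 129. Against rts1 the counts were 66 and 379, and against tco89 214 and 38.

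Of the 12 greatest rises in ras2, all had a more positive change than in wt, as a log2 difference of 3.85 for CYC1, 2.78 for YAT1, 4.05 for HXT6, 2.04 for ECM13, 3.04 for HAP4, 2.44 for RGI2 and 2.56 for YAT2. It was 2.67 for PDH1, 2.67 for SDH1, 2.11 for QCR6, 2.11 for ACH1 and 2.15 for SPO24. These rises, and the falls below, were picked by the size of their change in ras2. The test against wt uses the same ras2 libraries, so its outcome for them was largely set by that choice. Of all genes past the threshold, 193 of 227 rises and 78 of 104 falls also differed from wt in the same direction.

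Of the 12 greatest falls, all had a more negative change than in wt, with a difference of -3.12 for CWP2, -2.58 for PMA2, -3.30 for LSO1, -2.11 for ENO2, -2.99 for PUT4 and -2.49 for INO1. It was -1.65 for FAS1, -1.53 for MRH1, -2.05 for DAL3, -1.88 for GAP1, -2.03 for TPO4 and -1.17 for SPS100. The difference for SPS100 was -0.80 with quantile normalization, short of 2-fold, and did not pass the 1.5-fold test (limma adjusted p = 0.212). The other genes named for their difference from wt were DSF1 (2.85) and MDH2 (-2.41), the last of which fell in ras2 and was higher at 16 h in wt. Values of HXT6 and DSF1 share reads with near-identical copies.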

How the results depend on the processing

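The ras2 counts of 227 and 104 were 151 and 151 with median-ratio scaling, 166 and 143 with quantile normalization, 203 and 107 under a test against a 1.5-fold change, 251 and 117 with a pseudocount of 0.1, 156 and 86 with 5, and 202 to 269 and 100 to 114 with 1 library left out. The wt counts of 13 and 9 were 7 and 0 under the 1.5-fold test (limma's treat, with 22 and 9 at an unadjusted p under 0.05), and the 9 was 3 to 7 with 1 library left out (3 without the first library at 12 h, 5 without the second at 16 h). The difference from wt (363 and 129) gave 238 and 226 with median-ratio scaling, 204 more negative with quantile normalization and 225 more positive under the 1.5-fold test. The difference from rts1 (66 and 379) gave 134 and 135, 132 and 157, and 35 and 235 under those 3 settings, 221 more negative with a pseudocount of 5, and 54 to 107 more positive and 305 to 462 more negative with 1 library left out. The difference from tco89 (214 and 38) gave 132 and 88, 136 and 94, and 88 and 14, and 193 to 255 and 27 to 62 with 1 library left out. The cause of these shifts was not tested. For named genes, 1437 values of the ras2 change under an alternative kept their direction and side of the threshold, 45 were no longer past it, 2 passed it newly and 0 reversed; for the difference from wt the numbers were 1843, 49, 16 and 0. Of the ras2 changes of genes named here with a value, CWP1 and ATG10 (adjusted p = 0.0534 each), HXT2 (0.135), PCL1 (0.155), ADE17 (0.183), COX4 (0.311), SAM2 (0.393) and MF(ALPHA)1 (0.871) did not pass the 1.5-fold test. Where a left-out library left 1 in its group, that one was assumed to vary like the rest. No paired analysis was possible because the column names carry no replicate number. TPM gives no depth, so the precision of low values is unknown.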

Other observations

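In each of the lists below 1 gene passed the threshold in ras2, where 3.94% of all genes rose and 1.8% fell, so the counts are not read as results about the lists. In autophagy 1 of 31 genes rose: ATG10, the enzyme that joins Atg12 to Atg5, had 41.5 and 43.1 TPM at 16 h, against 18.3 and 19.0 TPM at 12 h (log2 change 1.14 ± 0.19), and its change was 0.99 with median-ratio scaling. In purine synthesis 1 of 18 genes fell: ADE17, which closes the purine ring, had 32.9 and 31.1 TPM at 16 h, against 69.8 and 66.6 TPM at 12 h (-1.07 ± 0.21), or -0.98 with a pseudocount of 5. In sulfate assimilation and methionine 1 of 24 fell: SAM2, an S-adenosylmethionine synthetase, had 57.2 and 63.4 TPM at 16 h, against 152 and 131 TPM at 12 h (-1.22 ± 0.33). Of 26 oxidative stress genes 1 fell and 14 were lower by adjusted p alone, against 13.9% of all genes, with a median of -0.28, and 3 fell with median-ratio scaling. The one that fell was TSA2, a cytosolic peroxiredoxin, with 130 and 111 TPM at 16 h, against 354 and 287 TPM at 12 h (-1.40 ± 0.11).

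Of 3 markers of the alpha mating type 1 fell, MF(ALPHA)1, the gene of the mating pheromone, with 70.4 and 85.1 TPM at 16 h, against 182 and 153 TPM at 12 h (-1.10 ± 0.37, limma adjusted p = 0.015). Without the first library of either time its adjusted p was 0.0985 and 0.0984. It was far higher in log phase, at 2910 and 3205 TPM in ras2 at 0 h. MF(ALPHA)2 and STE3, the other alpha markers of the list, did not fall, with log2 changes of 0.27 and 0.07.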
